A study of Homo sapiens with 12 samples.

Results

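EFEMP1, COPZ2, AQP3, ENPP3, ENDOD1, DISP2, DIPK1B and CFAP221 are 8 genes of unrelated families whose transcript levels were far lower in HK-2 cells exposed to a low dose of Kbr than in vehicle-treated cells. They were chosen on that difference, as measured on these same arrays. They make up 8 of the 19775 gene symbols named on the array and 22 of its 54675 probe sets, the groups of short oligonucleotides that each report on a transcript. All 8 genes are among the 10665 with a log2 value above 4 on at least 3 of the 12 arrays. DISP2 met that condition through its vehicle arrays alone.

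HK-2 is an immortalized line of human proximal tubular epithelial cells, kept in a medium with growth factor, insulin, transferrin and hydrocortisone added. The 4 groups were cells given low-dose Kbr for 24 h, cells given vehicle for 24 h, cells given low-dose Kbr for 48 h and cells given vehicle for 48 h, each with 3 biological replicates and 1 array per replicate. The sources used here give neither the concentration of Kbr nor what its name stands for, and all groups come from a single cell line. RNA was taken from whole wells, so a lower level in part of the cells and less RNA in every cell cannot be told apart.

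The 8 products act in different places. EFEMP1 is a secreted fibulin of the extracellular matrix, AQP3 a membrane channel for water and glycerol, and ENPP3 an enzyme on the cell surface that cleaves extracellular nucleotides. COPZ2 is an alternative zeta subunit of COPI, the protein coat of vesicles that return cargo from the Golgi apparatus to the endoplasmic reticulum. DIPK1B belongs to a family of kinase-like proteins of the secretory pathway, and ENDOD1 carries an endonuclease-like domain. DISP2 is a relative of Dispatched, the transporter that releases lipid-modified Hedgehog proteins, and CFAP221 is a protein of the motile cilium. In the kidney AQP3 is known from the basolateral membrane of collecting duct cells, whereas HK-2 cells derive from the proximal tubule.

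The promoters are shown because these genes of unrelated function were low in the same samples. RefSeq promoter sequences (GRCh38.p14, 250 bases before to 50 after the annotated start) were at hand for 7 of the 8 genes, all but EFEMP1. The 4 printed here are that of COPZ2 (chr17:48037748-48038047, minus strand), that of AQP3 (chr9:33447544-33447843, minus strand), that of ENPP3 (chr6:131637052-131637351, plus strand) and that of CFAP221 (chr2:119544199-119544498, plus strand). They are written 5′ to 3′ on the gene's strand, and capitals mark the motifs listed after them.
COPZ2: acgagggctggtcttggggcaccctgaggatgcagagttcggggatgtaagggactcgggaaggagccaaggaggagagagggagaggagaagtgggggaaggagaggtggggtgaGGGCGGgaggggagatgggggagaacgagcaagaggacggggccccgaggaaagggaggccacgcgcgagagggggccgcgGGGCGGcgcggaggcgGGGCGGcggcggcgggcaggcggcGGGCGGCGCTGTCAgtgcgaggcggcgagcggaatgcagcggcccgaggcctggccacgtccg
AQP3: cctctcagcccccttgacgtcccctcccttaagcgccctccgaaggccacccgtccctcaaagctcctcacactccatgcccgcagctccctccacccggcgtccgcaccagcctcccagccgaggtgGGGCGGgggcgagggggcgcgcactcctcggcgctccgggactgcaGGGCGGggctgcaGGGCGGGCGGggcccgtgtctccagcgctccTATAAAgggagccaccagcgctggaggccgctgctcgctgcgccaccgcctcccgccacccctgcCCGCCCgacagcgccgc
ENPP3: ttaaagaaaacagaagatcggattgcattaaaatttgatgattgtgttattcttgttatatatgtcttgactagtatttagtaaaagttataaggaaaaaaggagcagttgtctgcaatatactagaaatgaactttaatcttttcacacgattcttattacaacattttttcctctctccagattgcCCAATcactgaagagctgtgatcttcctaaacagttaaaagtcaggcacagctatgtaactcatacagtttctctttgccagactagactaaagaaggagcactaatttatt
CFAP221: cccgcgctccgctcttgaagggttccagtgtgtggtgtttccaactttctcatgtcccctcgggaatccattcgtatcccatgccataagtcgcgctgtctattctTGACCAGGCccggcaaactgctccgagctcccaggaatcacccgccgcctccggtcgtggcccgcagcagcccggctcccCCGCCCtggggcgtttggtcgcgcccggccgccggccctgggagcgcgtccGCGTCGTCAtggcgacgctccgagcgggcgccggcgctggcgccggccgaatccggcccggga

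Motifs were searched on both strands, and a match is a match of letters only. The TATA box TATAAA was found in 11.5% of all 35116 promoters of the table and, among the 7, only in that of AQP3, where it begins at position -32 relative to the start. The GC box GGGCGG was found in 45% of all promoters and in 6 of the 7, with 5 matches each in AQP3 and ENDOD1, 4 each in COPZ2 and DIPK1B, and 1 each in DISP2 and CFAP221. The CCAAT box CCAAT was found in 34.6% of all promoters and in ENPP3 and DISP2. The antioxidant response element core TGACNNNGC was found in 13.3% of all promoters, once in COPZ2, where it overlaps a GC box, and at 2 places in CFAP221. The AP-1 site TGANTCA, present in 7.71% of all promoters, was in 0 of the 7. Neighbouring GC boxes overlap in AQP3 and in ENDOD1.

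Base composition set ENPP3 apart from the other six. Its promoter held 32.3% G and C with 2 CpG dinucleotides, and 2.36% of all promoters had as low a share of G and C. The others held 70% (CFAP221) to 84.3% (DIPK1B), above the median of 58.7% over all promoters, with 31 CpG dinucleotides (AQP3) to 53 (DIPK1B). COPZ2, AQP3, ENDOD1 and DISP2 lay between, at 73.3%, 75.3%, 76.7% and 71%.

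Array medians of the deposited log2 values were 2.91 to 2.99, and arrays of a group correlated at Pearson's r of 0.982 to 0.993 across the genes tested. The replicate 3 arrays stood apart from the other replicates of their group on the second principal component, in every group. Of 13 proximal tubule markers named on the array, only SLC3A1 and KHK passed the filter, and LRP2, CUBN and SLC34A1, which define that segment, did not. Of the markers of other nephron segments (8 named), endothelium (5 named) and leukocytes (4 named), 0 passed the filter. Of 7 fibroblast markers, COL1A1, DCN and LUM passed, while COL1A2, COL3A1, PDGFRA and PDGFRB did not. The fibroblast and proximal tubule lists were both lower on Kbr arrays. The summed log2 level of the fibroblast list was 39.4 to 41.0 on Kbr arrays and 42.0 to 43.2 on vehicle arrays at 24 h. At 48 h it was 35.5 to 36.3 on Kbr arrays and 41.0 to 41.5 on vehicle arrays. Of its 3 tested genes, 2 were lower by the test at 24 h and 3 at 48 h. The summed proximal tubule list was 41.6 to 41.7 on Kbr arrays and 42.7 to 43.8 on vehicle arrays at 24 h. At 48 h it was 41.6 to 41.9 on Kbr arrays and 43.7 to 44.7 on vehicle arrays. Of its 2 tested genes, 1 was lower by the test at 24 h and 2 at 48 h. Across all genes tested, 3.25% were lower at 24 h and 20.8% at 48 h. The part of either in the differences below was not tested.

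Kbr against vehicle is the contrast on which the 8 genes were chosen, so their differences are described and no test of them is reported. The test serves only to list the falls among which they are ranked. Their places in that list are not support for a difference. Values are deposited log2 values of the probe set with the highest mean for the gene, and a difference of 1 is a doubling or halving. Standard errors come from the fit that ignores replicate numbers, so they include shifts that arrays of equal number share. The 8 genes are not simply the top of a ranking. At 24 h, 347 genes were lower by the test with all Kbr arrays below all vehicle arrays. Among them AQP3 ranked 4, DISP2 6, ENDOD1 7, DIPK1B 8, EFEMP1 16 and COPZ2 137 by size. ENPP3 and CFAP221 are outside this ranking, since their arrays overlapped at 24 h and neither was among the genes lower by the test. Of the 2123 such genes at 48 h, EFEMP1 ranked 2, ENDOD1 4, ENPP3 5, CFAP221 7, DIPK1B 8, COPZ2 9, AQP3 14 and DISP2 450. Just inside and outside the first 10 stood CGN at -1.74 and LYPD1 at -1.66 at 24 h, and MOB3B at -2.94 and SLC40A1 at -2.92 at 48 h.

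All 3 Kbr arrays lay below all 3 vehicle arrays for 6 of the 8 genes at 24 h and for 8 of 8 at 48 h. Across all genes tested the same was true of 15.9% at 24 h and 24.9% at 48 h, and since the genes were chosen on this contrast nothing is read from the excess. In 7 of the 8 the difference was larger at 48 h than at 24 h, and DISP2 was the exception. The median difference over all genes tested was -0.016 at 24 h and -0.0038 at 48 h.

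EFEMP1, the matrix fibulin, had the largest difference of the 8 at 48 h. At 24 h it stood at 6.86, 6.51 and 7.37 in Kbr replicates 1, 2 and 3, against 8.52, 8.39 and 8.39 in vehicle replicates. At 48 h it stood at 4.17, 4.38 and 4.59 in Kbr cells, against 8.44, 8.64 and 8.37 in vehicle cells. The vehicle level was nearly the same at both times, and every Kbr array was lower, with the 48 h arrays far below the 24 h arrays. The log2 difference was -1.52 at 24 h, or 2.87-fold lower, and -4.11 at 48 h, or 17.2-fold lower, with a standard error of 0.19 at each time. The 24 h difference was 37.1% of the 48 h difference on the log2 scale.

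AQP3, the water and glycerol channel, was already near the bottom of its range at 24 h. It stood at 4.69, 4.76 and 3.55 in Kbr replicates 1, 2 and 3, against 6.97, 7.28 and 5.23 in vehicle replicates, at 24 h. The 48 h values were 4.17, 4.28 and 3.86 in Kbr cells, against 6.95, 7.15 and 6.83 in vehicle cells. The groups did not overlap at either time, though replicate 3 was low in both treatments at 24 h. The difference was -2.16 at 24 h (4.48-fold lower) and -2.87 at 48 h (7.32-fold lower), each with a standard error of 0.47, so that 75.3% of the later difference was present by 24 h. Without the vehicle 24 h replicate 3 the 24 h difference was -2.80, but the Kbr replicate 3, low as well, was kept in. Within replicate numbers 1, 2 and 3 the 24 h differences were -2.28, -2.53 and -1.68.

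ENPP3, the surface nucleotide pyrophosphatase, showed the widest scatter between replicates. At 24 h it stood at 5.40, 4.76 and 3.45 in Kbr replicates 1, 2 and 3, against 7.62, 7.60 and 5.36 in vehicle replicates. By 48 h it was at 5.80, 5.59 and 3.79 in Kbr cells, against 8.80, 8.37 and 7.60 in vehicle cells. Replicate 3 was the lowest array in each of the 4 groups, and at 24 h its vehicle value lay just below the highest Kbr value. Within each replicate number the Kbr array was still the lower, by log2 differences of -2.23, -2.83 and -1.91 at 24 h. The difference of group means was -2.33 at 24 h (5.01-fold lower) and -3.20 at 48 h (9.16-fold lower), with a standard error of 0.73. Without the vehicle 24 h replicate 3 the 24 h difference was -3.07. That fit kept the Kbr replicate 3, also the lowest of its group, so it compares unequal sets of replicate numbers. The probe set carries the array maker's suffix for probes that match other sequences as well, so part of its signal can come from another transcript.

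COPZ2, the COPI subunit, had the smallest 24 h difference and the tightest Kbr arrays at that time among the genes above 4. It stood at 7.35, 7.36 and 7.25 in Kbr replicates, against 8.33, 8.28 and 7.87 in vehicle replicates, at 24 h. At 48 h it stood at 5.94, 4.99 and 5.27 in Kbr cells, against 8.51, 8.28 and 8.23 in vehicle cells. The groups were apart at both times, and most of the distance opened between them after 24 h. The difference was -0.84 at 24 h (1.79-fold lower) and -2.94 at 48 h (7.68-fold lower), with a standard error of 0.21, and the earlier was 28.5% of the later.

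DIPK1B and ENDOD1 were lower at both times, with wider scatter among the Kbr arrays at 48 h. DIPK1B, the kinase-like protein of the secretory pathway, stood at 5.14, 5.00 and 5.12 in Kbr replicates, against 7.24, 6.97 and 6.40 in vehicle replicates, at 24 h. The 48 h values were 3.72, 2.77 and 4.27 in Kbr cells, against 6.44, 6.59 and 6.55 in vehicle cells. The groups did not overlap, and the differences were -1.78 at 24 h (3.44-fold lower) and -2.94 at 48 h (7.69-fold lower), with a standard error of 0.32. ENDOD1, with its endonuclease-like domain, stood at 4.61, 4.02 and 4.73 in Kbr replicates, against 6.14, 6.62 and 6.54 in vehicle replicates, at 24 h. By 48 h it was at 2.82, 3.90 and 4.35 in Kbr cells, against 6.68, 7.11 and 7.48 in vehicle cells. It too showed no overlap, and its Kbr arrays were lower at 48 h in every replicate number while its vehicle arrays were higher. The ENDOD1 difference was -1.98 at 24 h (3.94-fold lower) and -3.40 at 48 h (10.5-fold lower), with a standard error of 0.35.

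DISP2, the relative of Dispatched, had the lowest levels of the 8. At 24 h it stood at 3.25, 3.28 and 3.28 in Kbr replicates, against 4.62, 5.61 and 5.54 in vehicle replicates. At 48 h it stood at 3.09, 3.06 and 3.26 in Kbr cells, against 4.54, 3.93 and 4.52 in vehicle cells. No Kbr array reached 4, and the smaller difference at 48 h came with lower vehicle arrays and not with higher Kbr arrays. The difference was -1.99 at 24 h (3.97-fold lower) and -1.19 at 48 h (2.29-fold lower), with a standard error of 0.24.

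CFAP221, the ciliary protein, was the only gene with a replicate number in which Kbr was not lower. At 24 h it stood at 4.51, 4.43 and 4.79 in Kbr replicates 1, 2 and 3, against 6.38, 6.44 and 4.76 in vehicle replicates. The 48 h values were 2.78, 3.23 and 3.65 in Kbr cells, against 5.98, 6.72 and 5.96 in vehicle cells. In replicate 3 at 24 h both treatments stood at about the same low level, and at 48 h all arrays were apart. The difference was -1.28 at 24 h (2.44-fold lower) and -3.0 at 48 h (8.0-fold lower), with a standard error of 0.41. Without the vehicle 24 h replicate 3 the 24 h difference was -1.84, with the Kbr replicate 3 kept in. Within replicate numbers 1, 2 and 3 the 24 h differences were -1.87, -2.01 and 0.031.

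**Figure D1:**
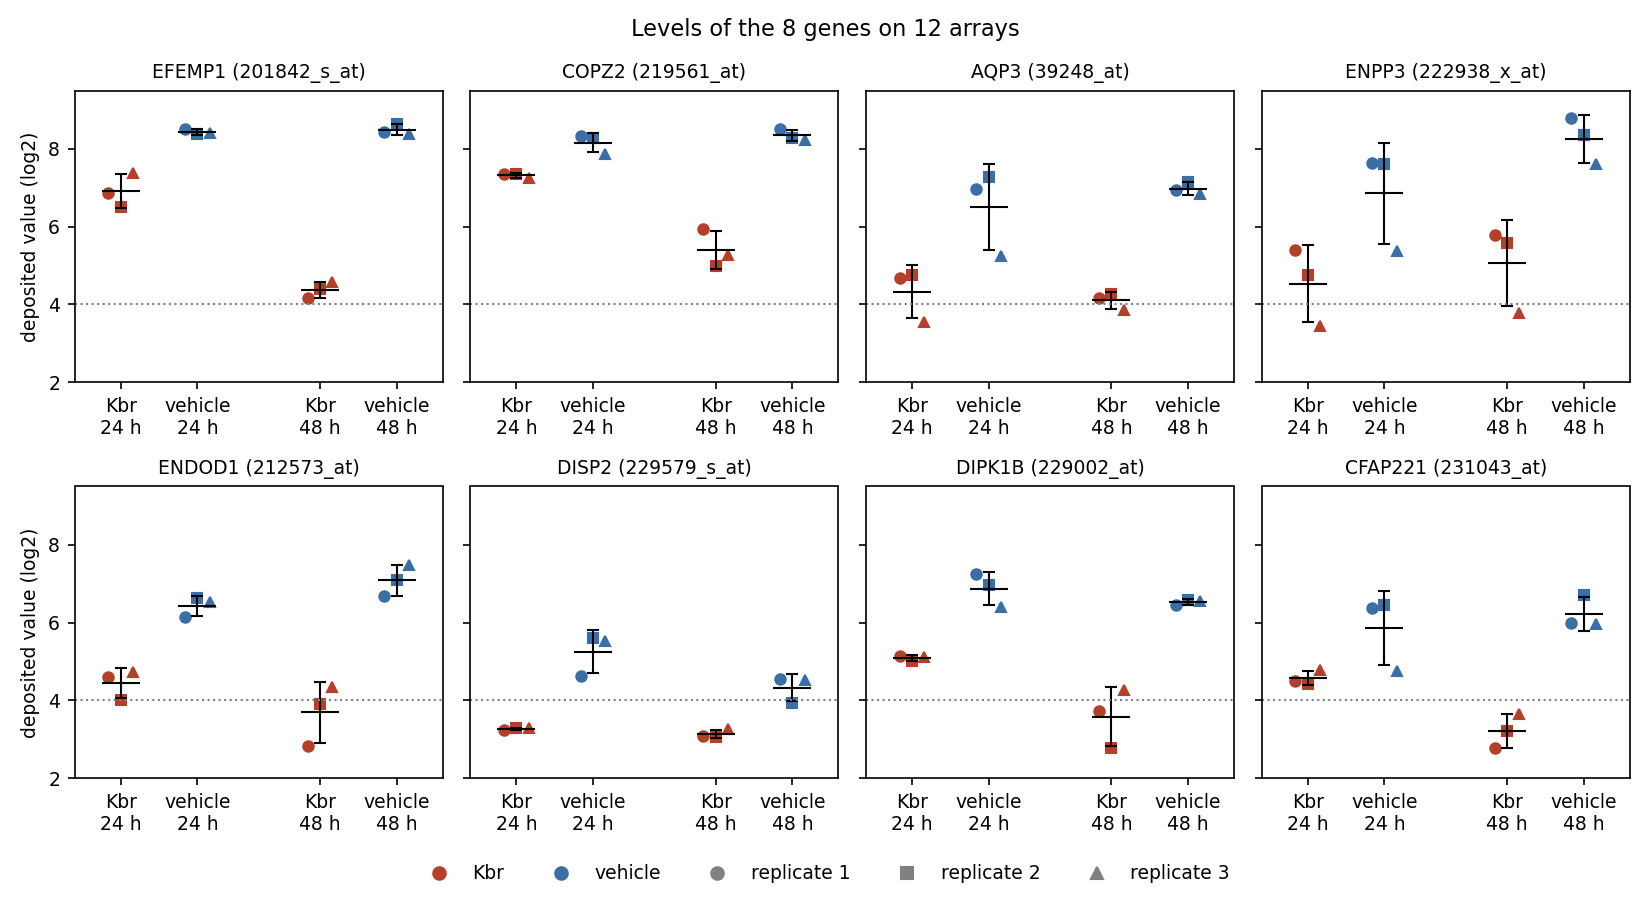
Deposited log2 value (vertical axis) of each gene on each of the 12 arrays, with Kbr in red and vehicle in blue at 24 and 48 h. Marker shapes give the replicate number, black bars the group mean and SD (n = 3), and the dotted line the value of 4. All Kbr arrays lie below all vehicle arrays at 48 h in all 8 panels, and at 24 h in all but those of ENPP3 and CFAP221.

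Replicate 3 was low for only some of the 8 genes. Relative to the mean of replicates 1 and 2, ENPP3 in replicate 3 differed by -1.63 in Kbr and -2.25 in vehicle cells at 24 h, and by -1.90 in Kbr and -0.98 in vehicle cells at 48 h. AQP3 differed by -1.17 in Kbr and -1.89 in vehicle cells at 24 h, and by -0.37 in Kbr and -0.22 in vehicle cells at 48 h. ENDOD1 went the other way in all 4 groups, by 0.41 in Kbr and 0.16 in vehicle cells at 24 h and by 0.99 in Kbr and 0.59 in vehicle cells at 48 h. Deviations from the group means over the 12 arrays are given as a description, since all genes were measured on the same arrays. They correlated between genes at Pearson's r of 0.849 for AQP3 with ENPP3 at the top and -0.739 for COPZ2 with ENDOD1 at the bottom. The median over the 28 pairs was 0.0787. The levels themselves, which hold the difference of treatment that chose the genes, correlated at 0.552 (ENPP3 with DISP2) to 0.964 (EFEMP1 with COPZ2).

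The order of the group means was the same in most genes. Both vehicle groups stood above both Kbr groups in all 8. The vehicle 48 h and vehicle 24 h arrays overlapped in 6 genes, while in ENDOD1 the 48 h arrays were all higher and in DISP2 the 24 h arrays were all higher. The Kbr 48 h and Kbr 24 h arrays overlapped in AQP3, ENPP3, ENDOD1 and DISP2, and did not in EFEMP1, COPZ2, DIPK1B and CFAP221, where 48 h was lower. The lowest vehicle group and the highest Kbr group overlapped in ENPP3 and CFAP221 only.

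Low values weigh on the folds. The deposited values were made with a background model, and below a log2 value of about 4 weak probe sets crowd together, so a fold between a level near that floor and a higher level depends on the model. Over the 8 genes, 5 of 24 values lay at or below 4 in Kbr cells and 0 of 24 in vehicle cells at 24 h, and 12 of 24 in Kbr cells and 1 of 24 in vehicle cells at 48 h. The Kbr mean was below 4 for DISP2 at 24 h (3.27 ± 0.018, SD, n = 3). At 48 h it was below 4 for ENDOD1 (3.69 ± 0.79), DISP2 (3.14 ± 0.11), DIPK1B (3.59 ± 0.76) and CFAP221 (3.22 ± 0.44). The other four had Kbr means at 48 h of 4.38 ± 0.21 (EFEMP1), 5.40 ± 0.49 (COPZ2), 4.10 ± 0.22 (AQP3) and 5.06 ± 1.10 (ENPP3).

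Of the 22 probe sets, 11 were above 4 on at least 3 arrays, 1 on 1 or 2 arrays, and 10 on none. Those 10 lay between 1.80 and 3.38, and 8 of them varied by less than 0.5 over all 12 arrays. They include the other probe sets of COPZ2 (235897_at), AQP3 (203747_at and 39249_at) and DIPK1B (226940_at, 227652_at and 229003_x_at). For these 3 genes and for DISP2, which has a single probe set, the difference therefore rests on 1 probe set.

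Second probe sets with signal gave the same direction in EFEMP1, ENDOD1 and, at 48 h, ENPP3. The EFEMP1 set 201843_s_at differed by -1.82 at 24 h and -1.63 at 48 h, and its Kbr and vehicle arrays did not overlap at either time. Its highest value on any array was 5.19. Its difference was larger than that of 201842_s_at at 24 h and smaller at 48 h. The ENDOD1 set 212570_at differed by -0.37 at 24 h and -2.32 at 48 h. At 24 h its arrays overlapped, with differences of -0.53, -0.52 and -0.048 in replicates 1, 2 and 3. It stood at 2.12, 4.30 and 2.82 in Kbr cells, against 4.80, 5.42 and 5.99 in vehicle cells, at 48 h, with no overlap. The ENPP3 set 232737_s_at differed by -0.14 at 24 h and -1.51 at 48 h, where it stood at 3.15, 3.03 and 3.02 in Kbr cells, against 3.72, 5.90 and 4.11 in vehicle cells. It was above 4 on 2 arrays only, both of them vehicle arrays at 48 h.

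CFAP221 is the gene whose probe sets above 4 disagreed. Its set 231043_at differed by -3.0 at 48 h. Its set 243237_at lay at 4.73 to 4.96 on all 12 arrays, with a difference of -0.072 at 24 h and 0.00019 at 48 h. This set varied by 0.23 over the arrays, and 8 of the 10 sets below 4 varied by less than 0.5. Whether 243237_at detected a transcript was therefore not shown. The other 2 sets, 237151_s_at and 237152_at, stayed below 4 and differed at 48 h by -0.36 and 0.0022. Which transcripts each set detects was not analysed here.

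**Figure D2:**
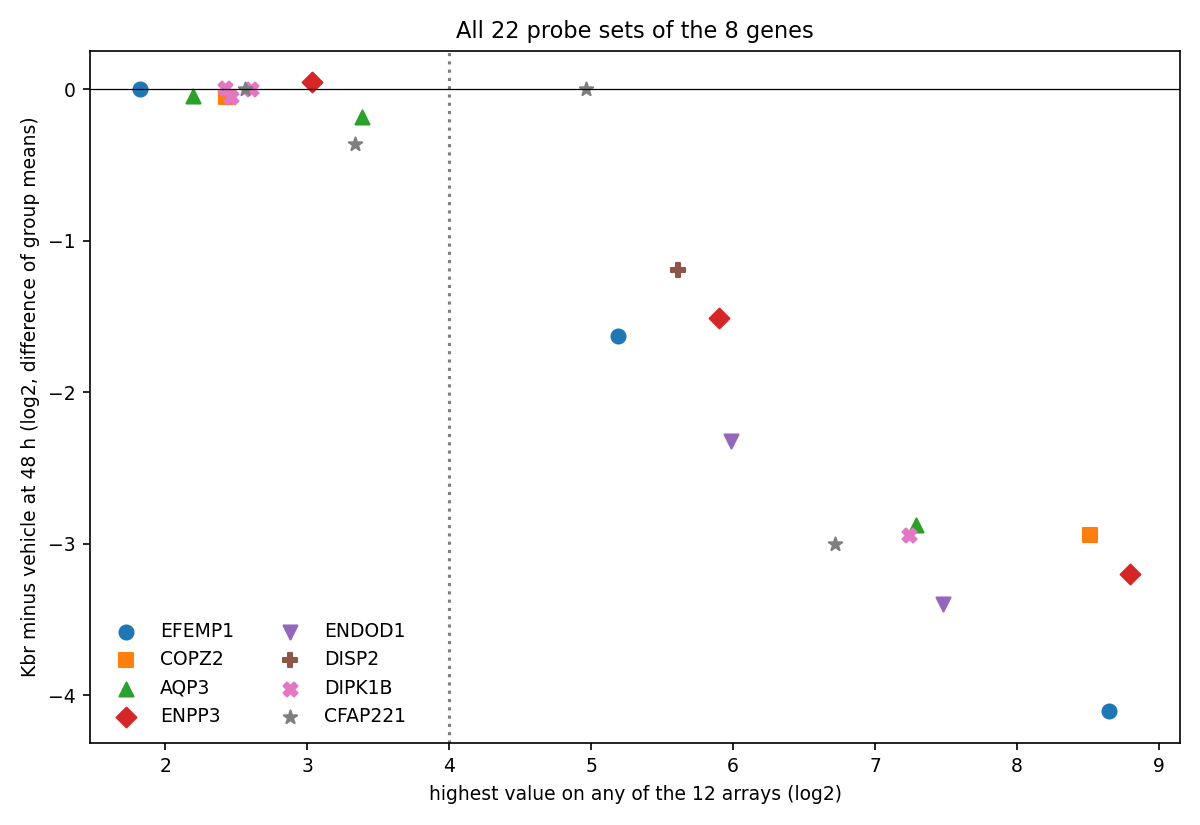
Difference between Kbr and vehicle means at 48 h (log2, vertical axis) against the highest value on any of the 12 arrays (log2, horizontal axis) for the 22 probe sets, with a symbol per gene and a dotted line at 4. The 10 sets left of the line lie between -0.36 and 0.048, and of the 12 to its right only the CFAP221 set 243237_at lies at 0.

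Change with time within a treatment is a different contrast, although it uses the same arrays as the choice of the genes. In vehicle cells 0 of the 8 genes changed between 24 and 48 h by limma's test, with Benjamini-Hochberg adjustment over all genes, and 1, DISP2, had an unadjusted p under 0.05. Across all genes, 1.42% were higher at 48 h and 1.88% were lower. DISP2 differed by -0.93 (standard error 0.24, adjusted p = 0.0621) and ENPP3 by 1.39 (standard error 0.73, adjusted p = 0.298). With the replicate number as a block both passed, at adjusted p = 0.0240 for DISP2, which fell, and 0.00441 for ENPP3, which rose. Over all genes the block gave 9.23% higher and 13.3% lower. DISP2 also passed without the vehicle 24 h replicate 1, at an adjusted p of 0.0151. Since DISP2 entered the tests through its vehicle arrays alone, and lies near 4 in them at 48 h, nothing is read from its calls. EFEMP1 differed by 0.05 (adjusted p = 0.906) and COPZ2 by 0.18 (adjusted p = 0.646). The others differed by 0.48 (AQP3), 0.65 (ENDOD1), -0.34 (DIPK1B) and 0.36 (CFAP221), with adjusted p of 0.314 or above.

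In Kbr cells 3 of the 8 genes fell between 24 and 48 h and 0 rose, and over all genes 5.04% fell and 5.6% rose (16.4% and 14.2% with the replicate block). The Kbr arrays are among the values on which the genes were chosen, so the count and its p-values are a description and nothing is read from them against these shares. EFEMP1 fell by 2.53 (standard error 0.19, adjusted p = 0.000286) and COPZ2 fell by 1.92 (standard error 0.21, adjusted p = 0.0016), and both passed whichever of the 12 arrays was left out. DIPK1B fell by 1.5 (standard error 0.32, adjusted p = 0.0164), and missed the threshold without Kbr 24 h replicate 1 (0.0548) or replicate 3 (0.0598). CFAP221 differed by -1.35 (adjusted p = 0.0573). It passed with the replicate block (0.0378), without vehicle 24 h replicate 3 (0.0139) and without Kbr 48 h replicate 3 (0.0368). ENDOD1 differed by -0.76 (adjusted p = 0.183), and passed only without Kbr 48 h replicate 3, at 0.0489. AQP3, ENPP3 and DISP2 differed by -0.23, 0.52 and -0.13, with adjusted p of 0.795, 0.682 and 0.763. A p that misses the threshold does not show that these levels were equal.

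**Figure D3:**
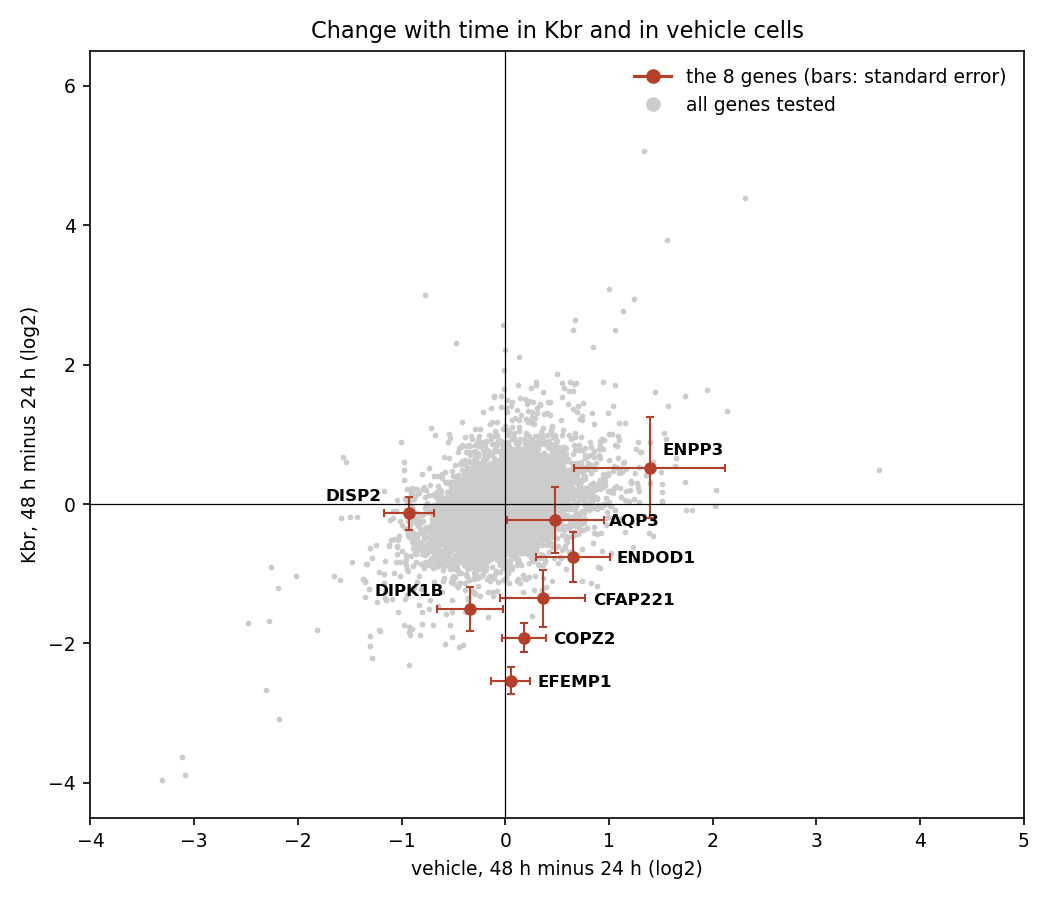
Difference between 48 and 24 h in Kbr cells (log2, vertical axis) against the same in vehicle cells (log2, horizontal axis) for all 10665 genes tested in grey and the 8 genes in red, with bars of 1 standard error. EFEMP1 and COPZ2 lie low in Kbr cells and near 0 in vehicle cells, DISP2 lies to the left near 0 in Kbr cells, and ENPP3 lies to the right.

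The relatives and partners of the 8 genes were examined through 8 gene lists with 132 genes, of which 125 are named on the array and 55 passed the filter. At 48 h 5 of the 55 rose, 23 fell and 27 did not pass the test, and at 24 h 0 rose and 5 fell. Across all genes tested, 22% rose and 20.8% fell at 48 h, and 2.48% rose and 3.25% fell at 24 h. The falls made up 41.8% of the 55 at 48 h and 9.09% at 24 h. The lists were chosen with earlier results of these data known, so nothing is read from these shares against those of all genes. Median log2 differences over the 55 were -0.24 at 24 h and -0.37 at 48 h. Each list gene is represented by 1 probe set, and others of the same gene can differ. Sets with the opposite sign at 48 h were 4 of 5 for PTCH1, and 3 of 4 for SUFU and FAM20C. The counts were 2 of 3 for SPAG16 and TMED10, and 1 of 2 for COPG2. They were 1 of 3 for FBN1, CDON, DIPK1A and COPB1, 1 of 4 for ENPP1 and ENTPD5, and 1 of 6 for GPR161. The levels of those sets were not examined. With the replicate block 1 rose and 18 fell at 24 h and 5 rose and 31 fell at 48 h, where over all genes 10.4% rose and 14% fell at 24 h and 28.7% rose and 28.8% fell at 48 h. Leaving out 1 array at a time moved the number changed at 24 h between 1 and 9. It was 1 without vehicle 24 h replicate 1 or Kbr 24 h replicate 2, 2 without Kbr 24 h replicate 3, 3 without vehicle 24 h replicate 2 and 9 without Kbr 48 h replicate 3.

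Around EFEMP1, some genes of the elastic fibre fell, and the closest fibulin did not pass the filter. Of 8 tested genes, 1 fell at 24 h and 4 fell at 48 h, with 0 rises, and the median was -0.48 at 24 h and -0.86 at 48 h. MFAP2, a microfibril glycoprotein, stood at 8.20, 7.80 and 8.29 in Kbr cells, against 10.12, 9.63 and 9.83 in vehicle cells, at 48 h, a fall of 3.40-fold (adjusted p = 0.000117). LOXL1, an enzyme that cross-links elastin, fell by 1.46 (standard error 0.21, adjusted p = 0.000452), and FBN1, the main microfibril protein, fell by 1.11 (standard error 0.17, adjusted p = 0.000527). LTBP2, the fourth to fall, is named because the count is small, and differed by -1.65. At 24 h MFAP2 fell by 0.93 (adjusted p = 0.0237), a call lost on leaving out any of 4 arrays (Kbr 24 h replicate 2 or 3, vehicle 24 h replicate 1 or 2). With the replicate block 4 of the 8 fell at 24 h, among them FBN1 at an adjusted p of 0.00574. EFEMP2, the nearest relative of EFEMP1, reached no more than 2.55 on any array.

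Around COPZ2, the median of the COPI coat list stayed near 0. Of 20 tested genes 2 fell at 24 h, and at 48 h 3 rose, 4 fell and 13 did not pass, with medians of -0.079 at 24 h and -0.018 at 48 h. COPZ1, the widely expressed zeta subunit, differed by -0.12 at 24 h (adjusted p = 0.524) and by -0.13 at 48 h (standard error 0.10, adjusted p = 0.354), and its Kbr arrays all lay below its vehicle arrays at 24 h but overlapped them at 48 h. KDELR3, a receptor that retrieves endoplasmic reticulum proteins, stood at 9.73, 9.79 and 9.99 in Kbr cells, against 11.08, 11.26 and 11.49 in vehicle cells, at 48 h. It fell by 0.94 at 24 h (adjusted p = 0.00315) and by 1.44 at 48 h (adjusted p = 2.94e-05). COPG2, an alternative gamma subunit of the coat, fell by 0.46 at 24 h (adjusted p = 0.0449) and by 0.70 at 48 h (adjusted p = 0.000967). With single arrays left out, its 24 h call was lost for 9 of the 12. ARF4, a small GTPase of the Golgi, rose by 0.59 at 48 h (standard error 0.13, adjusted p = 0.00408). The others that moved at 48 h, named for the small counts, were COPB1 at 0.34 and ARCN1 at 0.37, both coat subunits, and GBF1 at -0.36 and TMED10 at -0.34. Leaving out single arrays ended the GBF1 call for 9 of the 12 and the COPB1, ARCN1 and TMED10 calls for 3 of the 12 each, all of them 48 h arrays for those last genes. With the replicate block 4 of the 20 fell at 24 h.

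Around AQP3 no relative could be tested. Of 10 aquaporins named on the array, 0 passed the filter, and AQP1, the water channel typical of the proximal tubule, reached no more than 2.47 on any array. Among the aquaporins named, AQP3 alone was above 4 on at least 3 arrays.

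Around ENPP3, the list of ectonucleotidases held 8 tested genes, of which 1 fell at 24 h and 4 fell at 48 h, with 0 rises. Medians were -0.48 at 24 h and -0.60 at 48 h. ENPP1, which makes pyrophosphate outside the cell, stood at 8.65, 9.17 and 8.49 in Kbr cells, against 10.32, 10.62 and 9.59 in vehicle cells, at 48 h. It fell by 1.41 (standard error 0.35, adjusted p = 0.00833), and replicate 3 was its lowest array in both treatments, as it was for ENPP3. ENPP5 fell by 1.09 at 24 h (adjusted p = 0.0337, lost on leaving out any of the same 4 arrays as that of MFAP2) and by 1.10 at 48 h (adjusted p = 0.00537). ENTPD5, a nucleotidase of the endoplasmic reticulum, fell by 0.89 at 48 h (adjusted p = 0.000452), and ADA, adenosine deaminase, named for the small count, by 0.64. With the replicate block 6 of the 8 fell at 24 h, among them ENTPD5 (adjusted p = 0.00371) and ENPP1 (adjusted p = 0.0451), and 6 fell at 48 h, beside shares over all genes of 14% at 24 h and 28.8% at 48 h.

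Around DISP2, the Hedgehog list had 8 tested genes of 21 named, and 1 rose and 6 fell at 48 h, with 0 changed at 24 h and medians of -0.29 at 24 h and -0.72 at 48 h. DISP1, the transporter that releases Hedgehog proteins, was the gene that rose. It stood at 7.24, 7.75 and 7.19 in Kbr cells, against 6.86, 6.88 and 6.74 in vehicle cells, at 48 h, a rise of 0.56 (adjusted p = 0.0377) that was lost when any of the 3 vehicle 48 h replicates or Kbr 48 h replicate 2 was left out, at adjusted p of up to 0.144. HHAT, which attaches palmitate to Hedgehog proteins, fell by 0.86 (adjusted p = 0.00101). CDON, a Hedgehog co-receptor, stood at 5.56, 5.79 and 4.87 in Kbr cells, against 7.08, 7.11 and 6.31 in vehicle cells, and fell by 1.43 (adjusted p = 0.0052). GPR161, a ciliary receptor that restrains the pathway, fell by 0.57 (adjusted p = 0.00584), and with the replicate block it fell at 24 h too (adjusted p = 0.0150).

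Around DIPK1B, 2 of 5 tested genes of the DIPK and FAM20 families fell at 48 h and 0 changed at 24 h, with medians of -0.16 at 24 h and -0.39 at 48 h. FAM20C, the secretory pathway kinase, fell by 0.76 at 48 h (adjusted p = 0.0201) and DIPK1A, the nearest relative tested, by 0.74 (adjusted p = 0.0447). The FAM20C fall rests on 1 probe set, and its 3 others had the opposite sign. The DIPK1A arrays overlapped, at 6.54, 7.45 and 7.80 in Kbr cells and 7.77, 8.27 and 7.96 in vehicle cells, and its call was lost on leaving out any of 11 of the 12 arrays. The FAM20C call was lost without vehicle 48 h replicate 1 or 2 or Kbr 48 h replicate 2, at an adjusted p of up to 0.0623. With the replicate block FAM20C also fell at 24 h (adjusted p = 0.0180), and 3 of the 5 fell at 48 h.

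Around ENDOD1, the nucleases moved both ways. Of 5 tested, 1 fell at 24 h, and at 48 h 1 rose and 2 fell, with medians of -0.21 at 24 h and -0.33 at 48 h. EXOG, a mitochondrial endonuclease, stood at 6.84, 6.75 and 7.05 in Kbr cells, against 6.46, 6.52 and 6.58 in vehicle cells, at 24 h. By 48 h it was at 7.57, 7.58 and 7.26 in Kbr cells, against 6.07, 6.10 and 6.18 in vehicle cells, a rise of 2.56-fold (adjusted p = 3.57e-05). DNASE1L1 stood at 7.33, 7.16 and 7.39 in Kbr cells, against 9.48, 9.36 and 9.22 in vehicle cells, at 48 h, a fall of 4.16-fold (adjusted p = 6.01e-05). These genes moved in opposite directions with no overlap of arrays. At 24 h DNASE1L1 fell by 0.95 (adjusted p = 0.0228), a call lost without vehicle 24 h replicate 1 or Kbr 24 h replicate 2. DNASE2, the acid DNase of lysosomes, fell by 0.54 at 48 h (adjusted p = 0.0188), a call lost without vehicle 48 h replicate 1 or Kbr 48 h replicate 2, at up to 0.0739. ENDOG, a mitochondrial nuclease, differed by -0.33 at 48 h (adjusted p = 0.0772). With the replicate block ENDOG fell at 24 h (adjusted p = 0.0265) and at 48 h (adjusted p = 0.0088), and EXOG rose at 24 h (adjusted p = 0.0449, against 0.0810 without the block).

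Around CFAP221, of the 20 genes on the motile cilium list only SPAG16, a central apparatus protein, passed the filter. It differed by -0.38 at 24 h and fell by 0.51 at 48 h (standard error 0.16, adjusted p = 0.0240), a call lost without vehicle 48 h replicate 2 or 3 or Kbr 48 h replicate 3, at up to 0.0874.

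**Figure D4:**
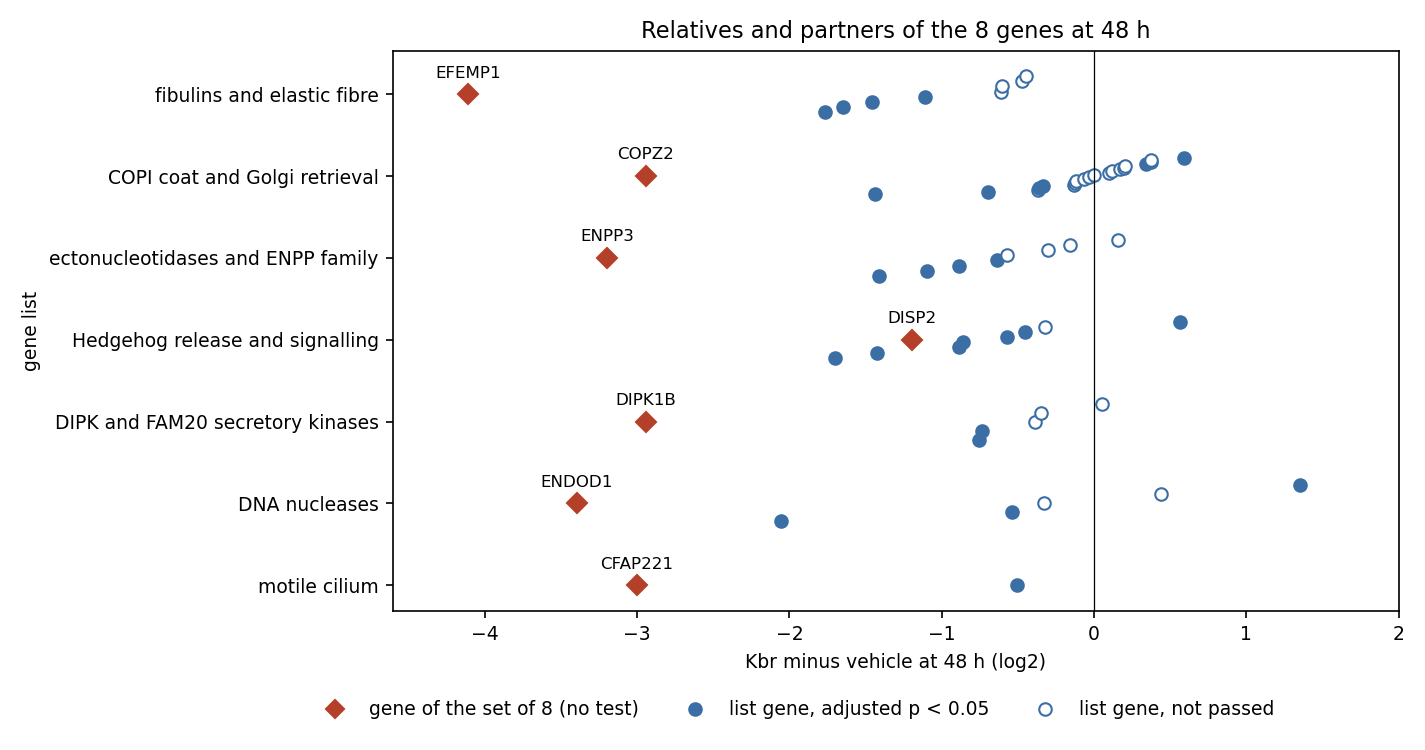
Difference between Kbr and vehicle at 48 h (log2, horizontal axis) for the 55 tested genes of 7 gene lists, filled where the adjusted p was under 0.05, with the gene of the 8 that belongs to each list as a red diamond. The diamonds lie left of every list gene except for DISP2, at -1.19, with CDON and BOC further left. The aquaporin list had no gene to plot.

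The neighbours of the 8 genes on the chromosome went both ways. Of the 16 nearest tested genes on either side, 6 rose, 5 fell and 5 did not pass the test at 48 h, and 0 changed at 24 h. Across all genes tested, 22% rose and 20.8% fell at 48 h, and 2.48% rose and 3.25% fell at 24 h. With 16 genes, nothing is read from the counts against these shares. The 5 that fell were CDK5RAP3 beside COPZ2, ENPP1 beside ENPP3, AGPAT2 and LCN10 on either side of DIPK1B, and TMEM37 beside CFAP221, of which CDK5RAP3 fell by 0.51 and LCN10 fell by 1.58. Neighbours of EFEMP1 rose on either side, PNPT1 by 0.70 and VRK2 by 0.60, as did those of DISP2, BUB1B by 0.35 and KNSTRN by 0.74. These genes are named for their position and not for their values. MIR152, a microRNA gene, lies within the annotated bounds of COPZ2, and 0 probe sets carry its name.

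The genes most alike in pattern over the 12 arrays were ranked by Pearson's r with the main probe set. The 12 arrays share the treatment and time groups, so these are descriptions only. For EFEMP1 they were ARL6IP5 (0.991), DMKN (0.988) and SYNGR1 (0.987), and for COPZ2 PBX3 (0.971), TCTN1 (0.969) and ZMYND8 (0.964). For AQP3 they were TBC1D5 (0.988), THYN1 (0.982) and DOCK1 (0.979), and for ENPP3 PREPL (0.987), OARD1 (0.986) and NR3C1 (0.982). ENDOD1 was closest to CC2D2A (0.974), FOCAD (0.969) and ARHGEF10 (0.968), and CFAP221 to PXMP2 (0.977), DLG1 (0.974) and TMBIM4 (0.974). DIPK1B was closest to NDUFB1 (0.978), AP3S1 (0.976) and MFAP2 (0.973), the last also on the elastic fibre list. DISP2 had the lowest closest values, with STOML1 (0.939) first.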

How the data were processed

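Total RNA from HK-2 cells was labelled with biotin and hybridised to 12 Affymetrix arrays, per the labels. The deposited values are log2 expression values of 54675 probe sets. The submitters' processing notes name GCRMA, and its version and settings were not given in the sources used here. That method removes a background modelled on probe sequence and equalises array quantiles, so weak probe sets gather at a floor. That the scale is log2 was read from the values, and no column was left out.

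In the platform annotation 41091 probe sets carried 1 symbol, 1801 several and 11721 none, and 62 were controls. Of the first, 41037 matched a current gene table and 0 symbols changed. A gene was represented by its probe set with the highest mean over the 12 arrays, and genes with log2 above 4 on at least 3 arrays were kept (10665 of 19775 symbols). In R 4.3.3, limma 3.58.1 (lmFit, eBayes) fitted the 4 group means on all arrays, and two-sided p-values received Benjamini-Hochberg adjustment over all genes kept, at a threshold of 0.05. They measure the spread between 3 biological replicates a group, a number that limits precision, and an exact test of 3 against 3 arrays cannot go below 0.1. The fit without the replicate block was tested on simulated data in which arrays were independent. Those data hold no pairing of replicate numbers, so the effect of such pairing on the fit was not tested.

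The 8 genes, the gene lists and the tests were chosen with earlier results of these data known. Named genes were the 8, up to 3 genes of each list with the smallest p at 48 h among those past the test, the closest relatives whatever their values, the 3 most alike in pattern, and the genes at ranks 10 and 11 of the falls. Replicate numbers come from the labels. Arrays of equal number from different groups (18 pairs) deviated together from their group means, at r of 0.28 to 0.70. The 36 pairs of unequal number gave -0.45 to -0.061. Deviations within a group cancel for every gene, so these negative values follow in part from the positive ones. For all 12 arrays the closest partner had the same number, so the numbers pair the arrays. The main fit leaves this pairing out, and the replicate block takes it in. Alternatives were the replicate block, no filter, a floor of 6, repeated quantile normalization, subtraction of array medians, averaging the probe sets of a gene, every probe set alone, fitting only the groups compared, robust variance with an intensity trend, and leaving out each array. Promoter sequences are RefSeq's (GRCh38.p14), and the order of neighbouring genes follows the same assembly.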

Additional observations from a re-analysis of the deposited data

Results flagged for a closer look

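EXOG responded differently at the 2 times: its Kbr effect at 48 h exceeded that at 24 h by 0.99 on the log2 scale (limma's test of the difference, adjusted p = 0.0472). The effect was 0.36 at 24 h (adjusted p = 0.0810, or 0.0449 with the replicate block) and 1.35 at 48 h (adjusted p = 3.57e-05), with all Kbr arrays above all vehicle arrays at each time. Within replicate numbers, COPZ2 was lower at 48 h than at 24 h on all 3 Kbr arrays and higher on all 3 vehicle arrays, there by as little as 0.0054, and the difference between the mean changes was -2.10. Its vehicle change did not pass the test (0.18, adjusted p = 0.646). ENDOD1 had the same signs, with a difference of -1.42, and neither of its changes passed (Kbr -0.76, adjusted p = 0.183, and vehicle 0.65, adjusted p = 0.314). For COPZ2 and ENDOD1 the difference was not tested, because the genes were chosen on a contrast that contains it.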

How the results depend on the processing

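Of the 8 genes, 2 changed in vehicle cells between 24 and 48 h with the replicate block, against 0 without it, and 0 to 1 when 1 array was left out. In Kbr cells 4 fell with the block, against 3, and 2 to 5 when 1 array was left out, with 5 without Kbr 48 h replicate 3. Of the list genes, 5 changed at 24 h, against 19 with the replicate block, 2 with no filter, 3 with only the groups compared, and 1 to 9 when 1 array was left out. At 48 h the 28 list genes that changed became 19 to 36 under all alternatives, each within 1.5 times. The members' Kbr differences kept their sign under every alternative that used the main probe set. Averaging all probe sets of a gene brought them to -1.11 at 24 h and -1.91 at 48 h for EFEMP1, -0.41 and -1.49 for COPZ2, -0.81 and -1.55 for ENPP3 and -0.35 and -0.84 for CFAP221, and to -1.17 at 24 h for ENDOD1, and AQP3 and DIPK1B then did not pass the filter. DISP2 did not pass a floor of 6. Single probe sets turned the sign at 11 places, by 0.048 at most: 228421_s_at (0.0057 at 24 h and 0.0020 at 48 h), 219912_s_at (0.025 and 0.048), 226940_at (0.018 and 0.0071), 235897_at (0.017 at 24 h), 39249_at (0.0086 at 24 h), 229003_x_at (0.0030 at 48 h), 237152_at (0.0022 at 48 h) and 243237_at (0.00019 at 48 h). All but 243237_at lay below 4 on every array. The causes of these shifts were not tested.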
